A study of Manis javanica with 3 samples.

Results

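The genes described here are those of blood clotting and of clot removal (fibrinolysis), together with the serpins, in 3 digestive organs of the Malayan pangolin (Manis javanica), the liver, salivary glands and small intestine. A gene was a member when the symbol in its Swiss-Prot entry started with SERPIN or was one of 29 listed clotting and fibrinolysis symbols. The rule found 79 genes, of which 76 had an expression value among the 24220 genes with one. By the product name of the best match in the NR protein database, 30 of the 76 were clotting or fibrinolysis genes and 28 were serpins. No gene carried the symbol F13B. The other 18 were related proteins that NR names otherwise, such as mucins that carry the symbol of von Willebrand factor. The 3 members without an expression value were a second SERPINA1 gene model (gene89), SERPINF2 (gene27070) and a mucin-like gene (gene21525).

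RNA was taken from 1 adult female, a wild animal that died while being rescued and for which the labels name no treatment. Each of the 3 tissues was sequenced as 1 library, so no value has a replicate check and no p-value is given. The genes were counted as whole fragments (counts) and as FPKM, the fragments scaled for transcript length and for the mapped fragments of the library. Where 3 values are given for a gene or a list, they follow the order small intestine, salivary glands, liver. The libraries held 10158924, 8318686 and 14568778 counts, and a count of 0 allows up to 0.295, 0.361 and 0.206 CPM (counts after each library is set to equal size). These CPM limits stand for 3 counts. All intervals below are at 95% confidence and cover counting error only. A fold given as at least sets a count of 0 to 3 and ignores error in the higher count, so it is not a confidence limit.

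In vertebrates, injury exposes tissue factor, which starts a chain of serine proteases that ends in thrombin, and thrombin turns soluble fibrinogen into fibrin. Most of these proteases, their cofactors and the precursor of the clot-dissolving enzyme plasmin are made by hepatocytes and released into plasma. Serpins are a family of proteins, many of which trap a protease by an irreversible change of their own shape. Some serpins restrain clotting, others act on inflammatory proteases, carry hormones or work inside epithelial cells.

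The liver label was borne out by hepatocyte markers, since 7 of 7 listed genes were at least 4-fold higher there than in both other libraries, and they held 68960 counts. The same list held 1717 counts in the small intestine library, of which 1540 were on ALB (albumin), and 74 in the salivary gland library, where TTR, APOB, ARG1 and HNF4A stood at 0. The library labelled small intestine was set apart by gastric genes. All 7 listed gastric gene models were at least 4-fold higher in it than in both other libraries, with 176977 counts on them, against 170 counts in salivary glands and 8 in liver. Of all genes, 4.31% were that much higher in this library and 5.07% in the liver, with an FPKM above 1. The library labelled small intestine is called the small intestine library below, by its label.

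A member was called higher in a library when its count, scaled by TMM factors, was at least 4-fold over that in each other library and its FPKM there was above 1. Counts under 3 were raised to 3 for this rule. In the liver, 24 of the 76 members (31.6%) were called, against 5.07% of all genes. The small intestine had 8 calls (10.5%), against 4.31% of all genes. In the salivary glands 3 were called (3.95%), against 2.31%. An FPKM of 1 was passed anywhere by 65 members and by 16790 of all genes. Among those 65 the calls were the same 24, 8 and 3 in the liver, small intestine and salivary glands. Among the 16790 the shares called were 7.31%, 6.22% and 3.33%, in that order. Of the 30 clotting and fibrinolysis genes, 18 were called in the liver, 0 in the salivary glands and 1 in the small intestine. Of the 28 serpins, 5 were called in the liver, 2 in the salivary glands and 4 in the small intestine. These were 17.9%, 7.14% and 14.3% of the serpins, against 5.07%, 2.31% and 4.31% of all genes, in that order. Serpin calls thus fell in both the liver and the small intestine. Of the 2 in the salivary glands, SERPINA9 had 19 counts there. Its fold over the liver had an interval (1.83 to 14.6) that reaches under 4, which leaves SERPINA11 as the clear serpin call in the salivary glands. In tissue RNA, a larger number of expressing cells and more RNA per cell cannot be told apart.

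**Figure D1:**
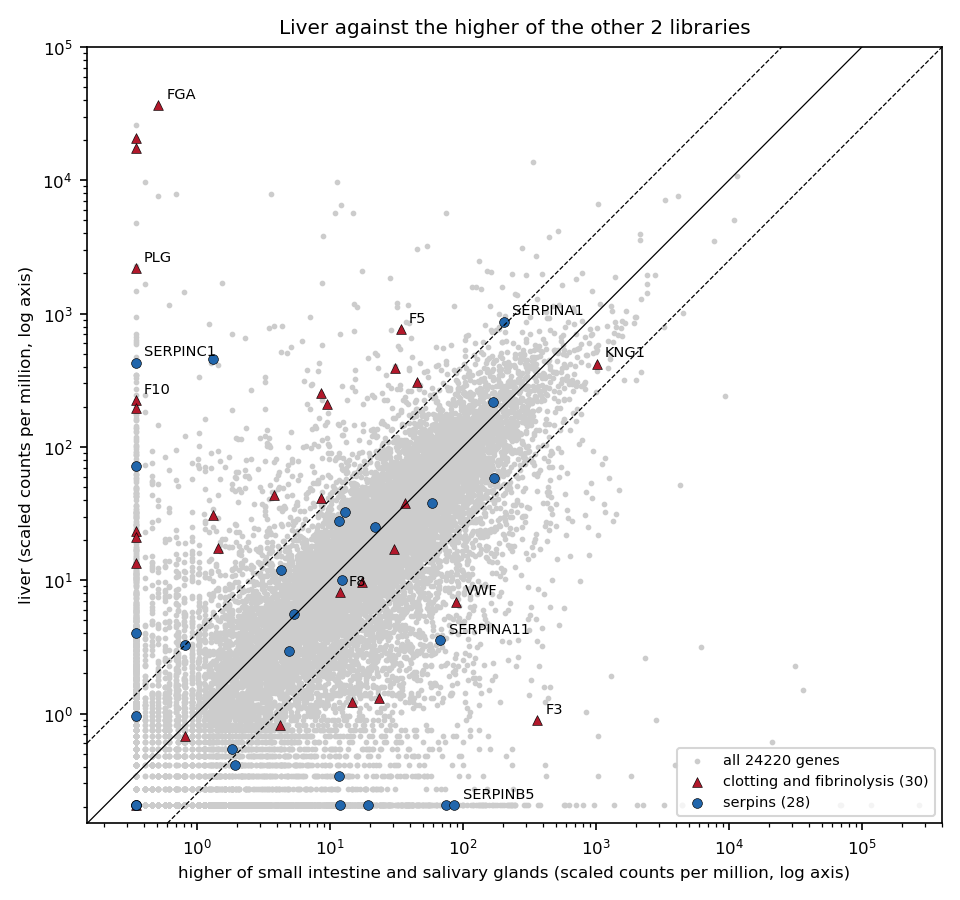
Scaled CPM of every gene in the liver (vertical axis) against the higher of the small intestine and salivary gland libraries (horizontal axis), both log axes, with counts under 3 raised to 3. The solid line marks equal levels and the dashed lines a 4-fold difference. Triangles are the 30 clotting and fibrinolysis genes, circles the 28 serpins and grey points all 24220 genes. FGA sits highest in the liver, F3 is far below the lower dashed line and SERPINB5 is at the floor in the liver.

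The median FPKM of the 30 clotting and fibrinolysis genes was 17.3 in the liver, 1.14 in the salivary glands and 0.968 in the small intestine. Over all genes the medians were 1.89, 1.76 and 2.16 in the same order. For the 28 serpins the medians were 1.90 in the liver, 0.315 in the salivary glands and 3.37 in the small intestine. An FPKM above 1 was reached in at least 1 library by 65 of the 76 members. By library, 41, 37 and 49 members did so, against 59.4%, 56.3% and 57.0% of all genes. The 58 clotting, fibrinolysis and serpin genes took 8.28% of all liver counts (Wilson interval 8.26 to 8.29%), 0.234% of the salivary gland counts (0.231 to 0.238%) and 0.104% of the small intestine counts (0.102 to 0.106%).

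Fibrinogen, the precursor of fibrin, is a plasma protein built of pairs of an alpha, a beta and a gamma chain. Its 3 chains alone held 7.52% of the liver counts (Wilson interval 7.51 to 7.54%). FGA (gene1592), the alpha chain, had counts of 2, 5 and 536135, and was the most counted gene of the liver library. FGB (gene1591), the beta chain, had counts of 0, 0 and 305441, and FGG (gene1593), the gamma chain, had 0, 0 and 254227. Each chain was thus almost confined to the liver library. Its liver FPKM was 9658 for FGA, 12822 for FGB and 12649 for FGG, at ranks 9, 7 and 8 of all genes in that library. The chains that form 1 protein were therefore present at like FPKM, the highest 1.33 times the lowest. By scaled counts FGA was 158359-fold higher in the liver than in the small intestine (43838 to 1307627) and 71217-fold higher than in the salivary glands (30517 to 219334). FGB was at least 60146-fold and 67621-fold higher, and FGG at least 50061-fold and 56283-fold, with the floor of 3 counts per library. The 3 genes lie side by side on scaffold NW_016528066.1, FGB from 62019 to 69764 on the plus strand, FGA from 80352 to 88355 and FGG from 99401 to 107792, both on the minus strand.

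The vitamin K-dependent proteins carry modified glutamate residues through which they bind calcium and membranes. All 7 were called in the liver, against 5.07% of all genes. F2 encodes prothrombin, the precursor of thrombin. F2 (gene14583) had counts of 266, 268 and 5728, with FPKM of 12.9, 10.7 and 149.5. It was 12.7-fold higher in the liver than in the small intestine (11.2 to 14.4) and 14.2-fold higher than in the salivary glands (12.6 to 16.1), and it was clearly present in both. Factor X, which converts prothrombin to thrombin, and factor IX, which activates factor X, differed from it in this. F10 (gene10407) had counts of 0, 0 and 3295 and a liver FPKM of 80.7, at least 649-fold and 729-fold higher than in the small intestine and the salivary glands. F9 (gene24111) had counts of 0, 0 and 198 and a liver FPKM of 5.67, the lowest of the group. Factor VII is the protease that tissue factor switches on. F7 (gene10406) had counts of 2, 13 and 448, with a liver FPKM of 16.0, 22.9-fold over the salivary glands (13.2 to 43.3).

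The remaining members of this group act against clotting or assist the proteins that do. Activated protein C cleaves the cofactors Va and VIIIa, and protein S assists it. PROC (gene12399) had counts of 15, 83 and 3701, with FPKM of 0.993, 4.43 and 130.0. PROS1 (gene13791) had counts of 393, 70 and 4468, with FPKM of 19.0, 3.31 and 154, and was the one of the group with the smallest liver excess, 6.72-fold over the small intestine (6.06 to 7.46). Protein Z is the cofactor with which the serpin SERPINA10 inhibits factor Xa. PROZ (gene10408) had counts of 82, 6 and 3053, with FPKM of 6.44, 0.161 and 121. In the liver PROS1, F2, PROC and PROZ thus lay between FPKM of 121 and 154, with F10, F7 and F9 below them. Outside the liver the order was not shared, because PROS1 and PROZ were 6.31-fold (4.88 to 8.26) and 15.4-fold (6.76 to 43.1) higher in the small intestine than in the salivary glands, while PROC was 4.92-fold higher in the salivary glands (2.82 to 9.19).

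The contact pathway starts on charged surfaces, where factor XII and plasma kallikrein activate each other with high-molecular-weight kininogen as their carrier, and factor XI is then activated. F12 (gene17373) had counts of 0, 0 and 309, and F11 (gene8297) had 0, 0 and 342, with liver FPKM of 8.51 and 12. Both were called in the liver, at least 60.8-fold and 67.3-fold over the small intestine. The other 2 members did not follow them. KLKB1 (gene8298), plasma prekallikrein, had counts of 16, 41 and 12, with FPKM of 0.868, 1.85 and 0.390. It was thus lowest in the liver and 5.14-fold higher in the salivary glands (2.65 to 10.8), on few counts. KNG1 (gene23234), the kininogen from which bradykinin is cut, had counts of 132, 9854 and 6175, with FPKM of 6.62, 363 and 175. It was the member with the highest FPKM in the salivary gland library, 2.40-fold over the liver (2.33 to 2.48) and 66.4-fold over the small intestine (55.9 to 79.4). Counts are per gene, so they do not tell the high-molecular-weight form from any other form of the kininogen. The 7 hepatocyte markers together held 74 counts in the salivary gland library, and their part in the level of KNG1 there was not tested.

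Cofactors and receptors hold the clotting proteases on membranes or change what they cut. Tissue factor is the membrane protein that starts clotting, and F3 (gene11379) had counts of 3133, 1358 and 13. Its FPKM were 161, 63.7 and 0.377, and no other member reached so high an FPKM in the library labelled small intestine. It was 408-fold higher there than in the liver (238 to 767), and the salivary glands were 157-fold higher than the liver (91.7 to 296). Because it was high in 2 libraries, the rule for a single library did not call it. Squamous epithelial markers had the same order, KRT5 with counts of 1940, 1533 and 0 and KRT14 with 1266, 741 and 0, and their part in the level of F3 was not tested.

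Factors V and VIII are the large cofactors of factors Xa and IXa. F5 (gene19780) had counts of 221, 332 and 11136, with FPKM of 4.60, 6.37 and 137, and was 29.8-fold higher in the liver than in the small intestine (26.1 to 34.2). F8 (gene3733) had counts of 86, 117 and 120, with FPKM of 1.41, 1.49 and 1.56. F8 was thus nearly level, 1.47-fold higher in the salivary glands than in the liver by scaled counts (1.13 to 1.91), an order that turned when FPKM were compared. VWF (gene1439), the multimer that carries factor VIII and tethers platelets, had counts of 775, 728 and 101, with FPKM of 9.58, 7.01 and 0.609. It was 13-fold higher in the small intestine than in the liver (10.5 to 16.1) and 10.9-fold higher in the salivary glands (8.80 to 13.5). A second VWF gene model of 717 bases (gene26159) had counts of 127, 143 and 18, so it was also lowest in the liver. Both may be parts of 1 gene, whose reads would then be split between them. THBD (gene8770), thrombomodulin, the endothelial receptor that redirects thrombin to protein C, had counts of 263, 260 and 249 with FPKM of 8.06, 6.77 and 4.08.

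VWF and THBD are made by endothelial cells. The 8 endothelial markers took 0.0162%, 0.0109% and 0.0256% of the counts, and their part in the levels of VWF and THBD was not tested. By FPKM, PECAM1 (23.9, 12.8 and 18), CLDN5 (17.1, 3.46 and 7.64) and CDH5 were highest in the small intestine. KDR, TEK, TIE1, ENG and EMCN were highest in the liver. KDR alone of the 8 was called, in the liver, with FPKM of 1.17, 0.630 and 5.65. STAB1, OIT3 and STAB2, 3 of the 4 listed genes of the sinusoidal endothelium of the liver, were called there, against 5.07% of all genes. STAB1 had FPKM of 3.44, 2.74 and 25.5, and LYVE1, which was not called, had 1.59, 1.08 and 3.84. The 5 platelet genes held 6, 9 and 44 counts, and GP1BA stood at 0 in every library. F13A1 (gene4499), the catalytic part of factor XIII, which crosslinks fibrin, had counts of 6, 8 and 10 and an FPKM under 1 in each library.

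Plasmin dissolves fibrin, and its precursor was one of the leading liver genes. PLG (gene14416), plasminogen, had counts of 1, 0 and 32155, and its liver FPKM of 687 was at rank 88 of all genes there. The ratio of liver to small intestine was 18995 (3409 to 750301), and PLG was at least 7119-fold higher in the liver than in the salivary glands. CPB2 (gene1701), a carboxypeptidase that removes the residues plasminogen binds to, had counts of 0, 0 and 2857 and a liver FPKM of 152, at least 563-fold and 633-fold higher. Thus the precursor and an inhibitor of clot removal were both almost confined to the liver library.

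The activators of plasminogen were lower. PLAT, tissue plasminogen activator, was split over 2 gene models. The first (gene17856) had counts of 33, 25 and 638 and the second (gene24784) 10, 14 and 256, with liver FPKM of 20.3 and 13.8, so both were called in the liver. PLAU (gene10464), urokinase, had counts of 150, 95 and 142 with FPKM of 6.82, 3.41 and 3.55, a range of less than 2-fold by scaled counts. Its receptor PLAUR (gene19634) had counts of 74, 35 and 609 with FPKM of 4.05, 1.61 and 18.7, and was called in the liver at 4.86-fold over the small intestine (3.81 to 6.28). The 4 markers of macrophages, cells in which PLAUR is also expressed, were all called in the liver, against 5.07% of all genes. CD163 had FPKM of 7.67, 6.96 and 61.0. The part of such cells in the level of PLAUR was not tested.

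Histidine-rich glycoprotein is a plasma protein that binds plasminogen and heparin. HRG (gene23235) had counts of 7, 359 and 557 with FPKM of 0.488, 20.6 and 23.1, and was 47.0-fold higher in the liver than in the small intestine (22.7 to 117). Between the liver and the salivary glands it differed by 1.03-fold (0.901 to 1.18), an interval that spans no difference, and library size alone put the salivary glands higher. Like its neighbour KNG1 it was therefore present in both the liver and the salivary glands. The Kunitz-type inhibitors were sparse. TFPI, the inhibitor of the tissue factor complex, was found as a fragment of 321 bases with counts of 1, 0 and 0, from which no level can be read. TFPI2 (gene10130), a related inhibitor of plasmin and other proteases, had counts of 203, 31 and 19 with FPKM of 5.70, 0.780 and 0.413, and was the clotting and fibrinolysis gene called in the small intestine, at 7.36-fold over the salivary glands (5.03 to 11.1).

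**Figure D2:**
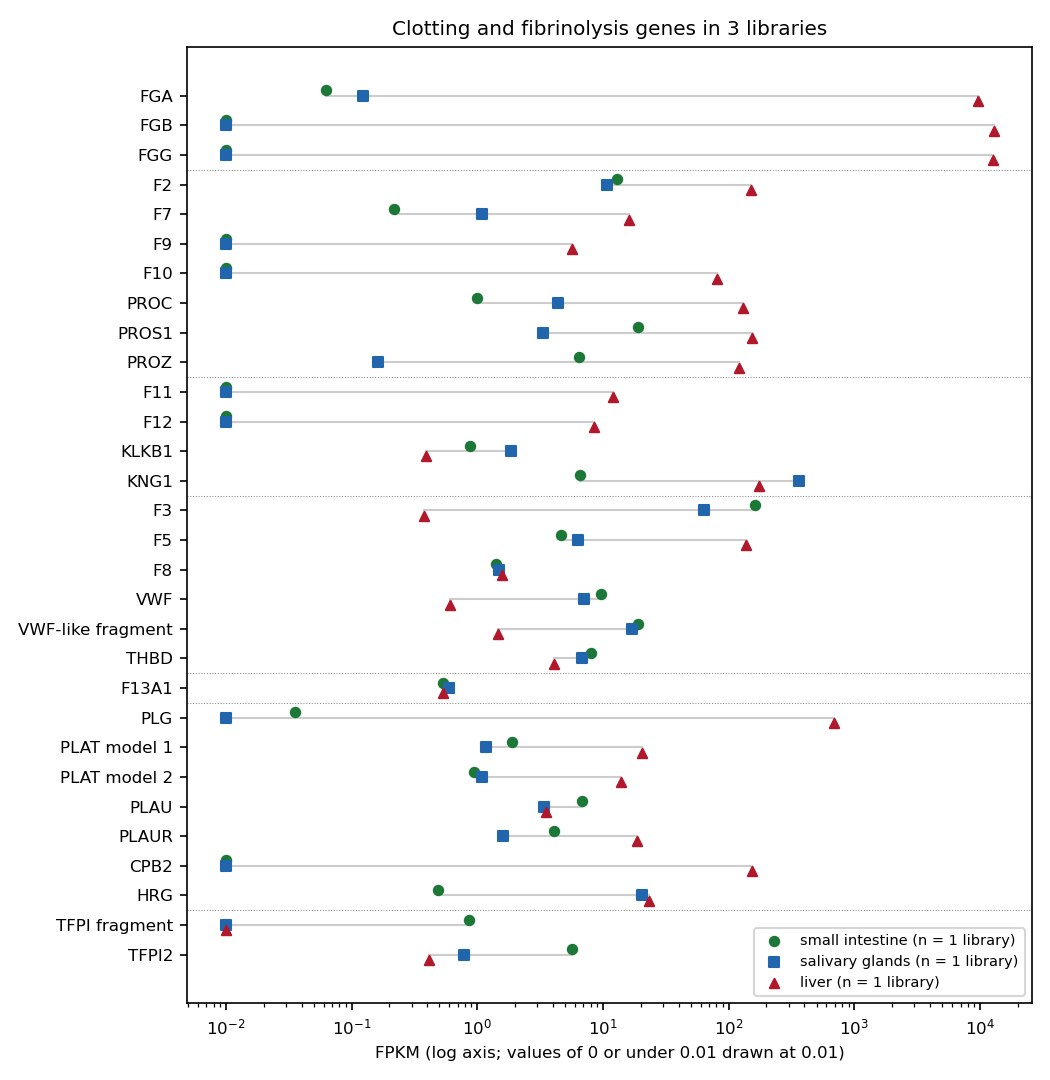
FPKM of the 30 clotting and fibrinolysis genes in the small intestine (circles), salivary gland (squares) and liver (triangles) libraries on a log axis, 1 library per tissue, with values of 0 drawn at 0.01. Dotted lines part fibrinogen, vitamin K-dependent proteins, contact factors, cofactors and receptors, F13A1, fibrinolysis genes and Kunitz inhibitors, from top to bottom. The liver lies far to the right for fibrinogen and PLG, while F3, VWF and KLKB1 are lowest in the liver and KNG1 is highest in the salivary glands.

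Clade A holds most serpins of plasma. SERPINA1 (gene88), alpha-1-antitrypsin, the main plasma inhibitor of neutrophil elastase, was the serpin with the highest FPKM in both the liver and the salivary glands. It had counts of 200, 1982 and 12777, with FPKM of 15.5, 120.0 and 586. The liver excess over the salivary glands was 4.28-fold (4.08 to 4.49), just past the threshold, and with library size alone it was no longer called. The salivary glands were in turn 8.81-fold higher than the small intestine (7.62 to 10.2). SERPINA5 (gene96), the protein C inhibitor, had a like order, with counts of 111, 1642 and 3158 and FPKM of 8.50, 86.6 and 113. It was 1.28-fold higher in the liver than in the salivary glands (1.20 to 1.36) and 13.2-fold higher in the salivary glands than in the small intestine (10.9 to 16.1).

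Other clade A serpins were tied to the liver. SERPINA10 (gene86), the protein Z-dependent inhibitor of factor Xa, had counts of 2, 13 and 6640 and a liver FPKM of 139, close to the 121 of its cofactor PROZ. SERPINA6 (gene87), which carries cortisol, had counts of 0, 0 and 1057, and SERPINA7 (gene18730), which carries thyroid hormone, had 0, 0 and 59. Both were called in the liver, with FPKM of 40.9 and 3.16, so hormone carriers and a clotting inhibitor shared this pattern.

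SERPINA11 and SERPINA9 were the serpins called in the salivary glands. SERPINA11 (gene91) had counts of 2, 660 and 52 with FPKM of 0.119, 30.6 and 1.86, and was 19.1-fold higher in the salivary glands than in the liver (14.4 to 25.9). SERPINA9 (gene93), known from germinal centre B cells, had counts of 2, 19 and 6 and an FPKM of 1.08 in the salivary glands, at the edge of detection. The fold over the liver was 4.77 (1.83 to 14.6), an interval that reaches under the threshold of 4. SERPINA13 (gene97) had counts of 3, 52 and 82 and stayed under an FPKM of 1 in each library. SERPINA4 (gene95), kallistatin, an inhibitor of tissue kallikrein, had a single count, in the liver.

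Clade B serpins mostly stay inside cells, and 4 of the 10 were called in the small intestine library, against 4.31% of all genes. SERPINB5 (gene22810), maspin, an epithelial protein, had counts of 748, 4 and 0, and an FPKM of 30.5 in the small intestine. SERPINB12 (gene22812) had counts of 649, 3 and 0 with an FPKM of 21.3, and SERPINB7 (gene22815) had 167, 0 and 0 with 10.8. SERPINB2 (gene23337), plasminogen activator inhibitor 2, had counts of 104, 6 and 2 with an FPKM of 6.19. These 4 were thus nearly absent from the other 2 libraries. SERPINB5 was 210.2-fold higher in the small intestine than in the salivary glands (81.8 to 774), and SERPINB2 was 19.5-fold higher (8.66 to 54.3). Of the squamous markers, DSG3 had the same pattern, with counts of 150, 2 and 0, whereas KRT5 and KRT14 were also high in the salivary glands, and the part of such cells in these levels was not tested.

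The other 6 clade B genes were not called in any library. SERPINB1 (gene12756), the inhibitor of neutrophil elastase in leukocytes, had counts of 175, 212 and 370 with FPKM of 10.3, 11 and 14.7. SERPINB6 (gene24290) had counts of 107, 88 and 146 with FPKM of 9.36, 6.18 and 7.80, so both were within 2-fold across the 3 libraries by scaled counts. SERPINB8 (gene7350) was highest in the small intestine and low in the liver, with counts of 102, 56 and 5 and FPKM of 4.05, 1.88 and 0.124. Its Swiss-Prot and KEGG entries name SERPINB8 although its NR entry names a protein like heparin cofactor 2, so its identity is uncertain. SERPINB10 (gene23336) had counts of 16, 2 and 8, and SERPINB11 and SERPINB13 had 1 count each, in the small intestine.

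Among the clades C to I, antithrombin stood out. SERPINC1 (gene1530), antithrombin, the main inhibitor of thrombin and factor Xa, had counts of 3, 0 and 6277, with a liver FPKM of 214. The ratio to the small intestine was 1236 (423 to 5995), and it was at least 1389.7-fold higher than in the salivary glands. SERPIND1 (gene19747), heparin cofactor 2, which also inhibits thrombin, was far lower, with counts of 5, 8 and 48 and a liver FPKM of 1.30. It was 3.99-fold higher in the liver than in the salivary glands (1.87 to 9.75), just outside the threshold.

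SERPINE2, protease nexin 1, was split over 2 gene models, with counts of 45, 126 and 478 on the first (gene2017) and 17, 42 and 174 on the second (gene21946). Their FPKM were 28.6 and 25.7 in the liver, 10.1 and 9.04 in the salivary glands and 4.25 and 3.92 in the small intestine, so both models gave the same order.

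The last serpins have roles outside clotting. SERPINF1 (gene4133), pigment epithelium-derived factor, which restrains vessel growth, had counts of 101, 13 and 405 with FPKM of 6.50, 0.706 and 15.1, and was lowest in the salivary glands. SERPINH1 (gene22683), the collagen chaperone of the endoplasmic reticulum, had counts of 506, 253 and 552 with FPKM of 23.5, 8.94 and 12.4, a range within 2.25-fold by scaled counts. SERPINI1 (gene3975), neuroserpin, had counts of 43, 6 and 43, and SERPINI2 (gene7144) had 0, 0 and 14 with an FPKM under 1. SERPINF2, the plasma inhibitor of plasmin, had no value to report.

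**Figure D3:**
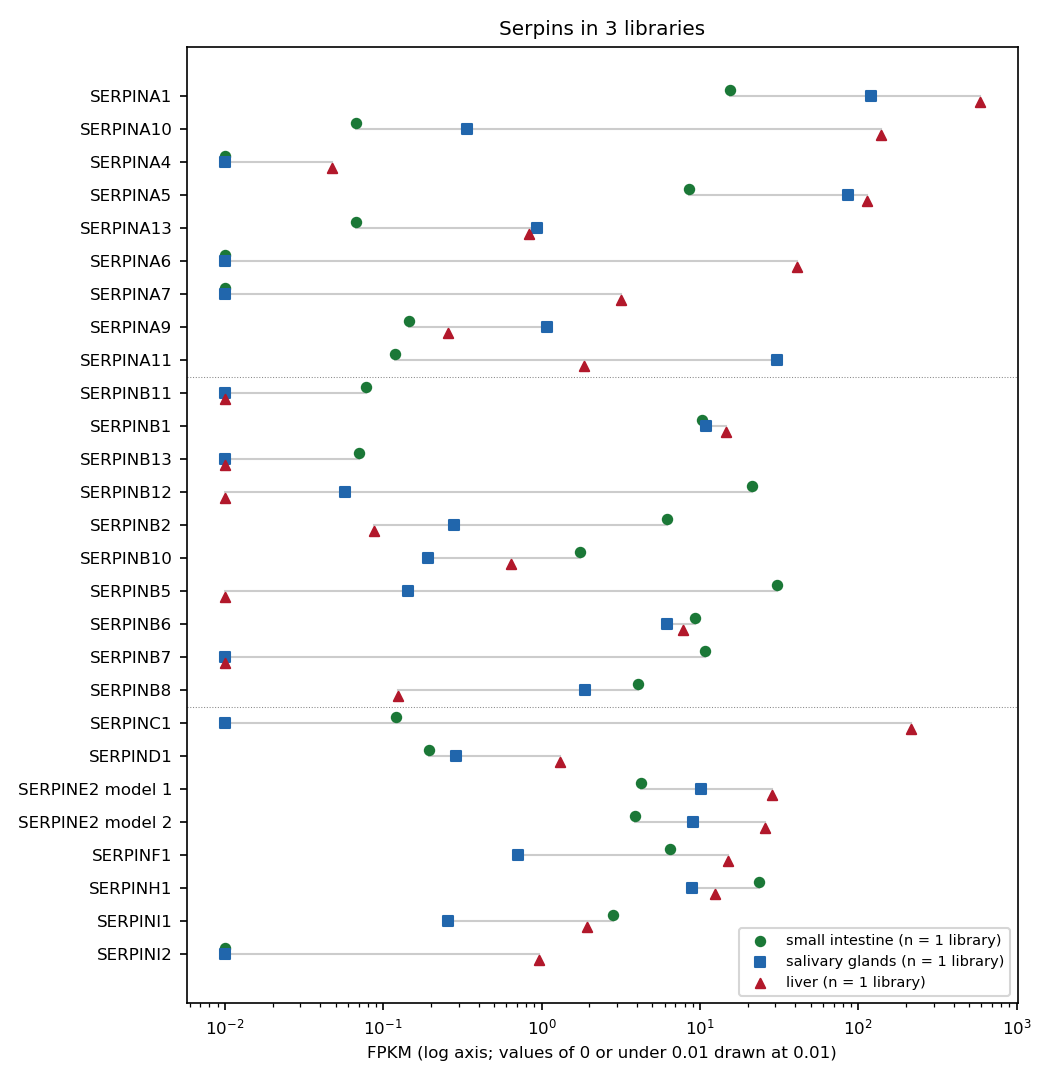
FPKM of 27 of the 28 serpins in the small intestine (circles), salivary gland (squares) and liver (triangles) libraries on a log axis, 1 library per tissue, with values of 0 drawn at 0.01. Dotted lines part clade A, clade B and clades C to I, from top to bottom. Liver points lead for SERPINA1, SERPINA10 and SERPINC1, the salivary gland point leads for SERPINA11 and small intestine points lead for SERPINB5, SERPINB12 and SERPINB7.

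The call names the library where a gene was high, and the opposite rule was added after the values were seen. It asked for a level at least 4-fold under both other libraries with an FPKM above 1 in both. In the liver it found 6 of the 76 members, F3, both VWF models, SERPINB8 and the related genes GAS6 and SPINT1, against 3.72% of all genes. In the small intestine it found 6, namely PROC, KNG1, HRG, SERPINA1, SERPINA5 and SERPINA11, against 0.694% of all genes. In the salivary glands it found 4, namely PROS1, PROZ, SERPINF1 and SERPINI1, against 1.46%. Of the 6 lowest in the small intestine, KNG1, HRG and SERPINA5 were not called higher in any single library.

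Several members lie next to each other on the scaffolds, and their patterns along these were shared in some groups and not in others. F7, F10 and PROZ follow each other on scaffold NW_016534279.1 between 3948 and 53504, all on the plus strand, and all 3 were called in the liver. F11 (59420 to 76934) and KLKB1 (81924 to 100737) are neighbours on scaffold NW_016532544.1, where F11 was called in the liver and KLKB1 was lowest there. KNG1 (49865 to 78185) and HRG (80048 to 89712) are neighbours on scaffold NW_016556446.1, and both were found in the salivary glands and the liver.

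The 8 clade A serpins on scaffold NW_016527303.1 stretch from 80999 to 364410. SERPINA10, SERPINA6 and SERPINA1 come first and were called in the liver, while SERPINA11 and SERPINA9 follow and were called in the salivary glands. Beyond them SERPINA4 had 1 count, and SERPINA5 and SERPINA13 were within 1.28-fold between the liver and the salivary glands. The 5 clade B serpins on scaffold NW_016554649.1, from 362930 to 544115, differed in level. SERPINB5, SERPINB12 and SERPINB7 were called in the small intestine, and SERPINB13 and SERPINB11 between them had 1 count each there.

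**Figure D4:**
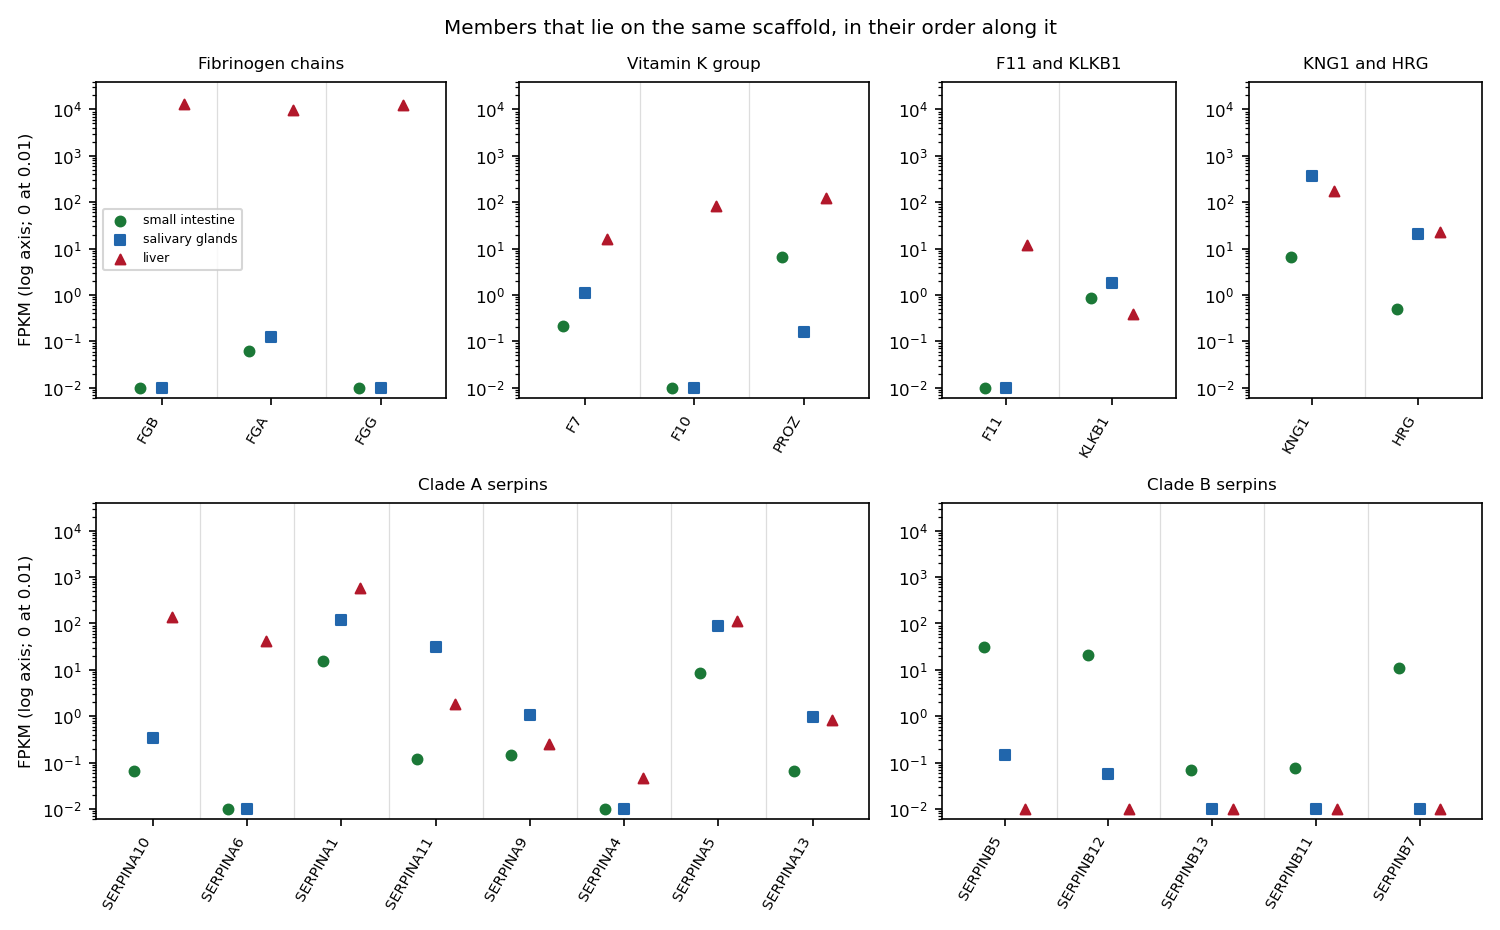
FPKM of members that share a scaffold, in their order along it, on log axes with values of 0 drawn at 0.01, for the small intestine (circles), salivary gland (squares) and liver (triangles) libraries, 1 library per tissue. Fibrinogen chains and F7, F10 and PROZ are each led by the liver. In the clade A group the lead passes from the liver at SERPINA10 to the salivary glands at SERPINA11, and in the clade B group SERPINB13 and SERPINB11 are low between higher neighbours.

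Genes that modify, release, receive or clear these proteins formed a list of 49 gene models, of which 23 were called in the liver, against 5.07% of all genes. In the small intestine and the salivary glands 0 were called, against 4.31% and 2.31% of all genes. The genes that add the vitamin K-dependent modification were not called in any library. GGCX, the carboxylase that makes it, had FPKM of 32.6, 43.8 and 33.1, and VKORC1, the target of warfarin, had 25.8, 36.2 and 119. The same held for LMAN1 and MCFD2, which carry factors V and VIII out of the endoplasmic reticulum, with liver FPKM of 78.6 and 121. FURIN, which cuts propeptides off clotting factors, was called in the liver, with FPKM of 38.7, 20.4 and 161.

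The 5 gene models of the thrombin receptor family and PROCR, the endothelial receptor of protein C, were not called in any library. Of the 5, only F2R and F2RL1 passed an FPKM of 1 in any library. F2R, the main thrombin receptor, had FPKM of 2.69, 1.80 and 0.835. All 4 clearance receptors were called in the liver, against 5.07% of all genes. Among them was LRP1, which removes protease and inhibitor complexes, with FPKM of 24.9, 10.9 and 106. ASGR1, a part of the asialoglycoprotein receptor, had counts of 0, 0 and 378. ANXA2 and S100A10, which together bind plasminogen on cells, were not called, with FPKM of 139, 164 and 115 for ANXA2.

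Of the 12 gene models of plasma inhibitors that are not serpins, 10 were called in the liver, against 5.07% of all genes. Several of the 12 are models of the same gene, A2M or C4BPA. Unlike SERPINC1, the leading models of A2M and C4BPA also passed an FPKM of 1 in both other libraries. The model of A2M with the highest count, the broad protease trap alpha-2-macroglobulin, had counts of 1326, 1091 and 30798, and 4 further models of A2M may share reads with it. AMBP, the precursor of bikunin, had FPKM of 1.48, 0.424 and 168, and C4BPA, part of the complex that binds protein S, had 67.9, 2.80 and 326. FGL1, a fibrinogen-like protein, had counts of 0, 1 and 9226 and a liver FPKM of 655. ADAMTS13, which cuts VWF, was called in the liver with FPKM of 0.406, 0.258 and 7.86, the library in which its substrate was lowest. HABP2 and HGFAC, proteases related to factor XII, had liver FPKM of 38.2 and 68.8, and both had a count of 0 in the salivary glands.

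The 18 genes that the symbols gathered but NR names otherwise were called once in the liver and once in the salivary glands (5.56% each, against 5.07% and 2.31% of all genes) and 3 times in the small intestine (16.7%, against 4.31%). A single gene of 18 is near the share among all genes. The 3 in the small intestine were mucins, MUC6 with counts of 2598, 4 and 1, MUC5AC with 1551, 4 and 0 and a MUC2-like gene with 177, 1 and 1. MUC6 and MUC5AC are mucins of the stomach, and they had the pattern of the gastric genes of that library. MUC5B was called in the liver with counts of 10, 19 and 386 and a liver FPKM of 3.01. PRRG4, a membrane protein with a vitamin K-dependent domain, was called in the salivary glands with counts of 4, 59 and 3.

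GAS6, a relative of protein S that activates receptor kinases, had counts of 1182, 1157 and 325 with FPKM of 46.9, 36.3 and 6.23, and was 5.36-fold higher in the salivary glands than in the liver (4.74 to 6.08). SPINT1, a Kunitz-type inhibitor of epithelial proteases, had counts of 478, 1012 and 21, and was 38.5-fold higher in the small intestine than in the liver (24.9 to 62.8). Both were lowest in the liver, as F3 and VWF were.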

How the data were processed

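RNA of 3 tissues of 1 animal was sequenced in pairs. The authors aligned the reads with TopHat2, without regard to strand, to the M. javanica genome, whose build is not given in the sources used here, and built new genes from further reads with Cufflinks. The count deposited for a gene is a whole number of fragments. The paper gives FPKM as fragments over mapped fragments and transcript length. The deposited FPKM did not follow from the deposited counts and lengths alone. They were in fixed proportion neither to count over length within a library nor to a gene's count across libraries. The deposited score, the count times 1 factor per library, was not used. The authors also deposited the text annotation against 7 databases. Positions are those the authors gave.

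Scripts ran in Python 3.11.15 with scipy 1.17.1, numpy 2.4.6, pandas 2.3.3 and, for figures, matplotlib 3.10.9. TMM factors from edgeR 4.0.16 in R 4.3.3 were 0.851 (small intestine), 1.17 (salivary glands) and 1.00 (liver). Over genes with at least 10 reads in both libraries, the median log2 ratio of liver to small intestine was 0.05 by TMM and 0.29 by library size, of liver to salivary glands 0.00 and -0.21, and of small intestine to salivary glands -0.04 and -0.49. Counts have exact Poisson and ratios exact Clopper-Pearson intervals. A call needed a fold of 4 and an FPKM above 1, with counts under a floor of 3 raised to it, and a fold against a count of 0 is a lower bound against the floor. On simulated data of 24220 genes, 100% of 200 genes raised 8-fold in the liver were called, with 0 other calls there. The simulated libraries shared the same mean profile with counting noise only, and the raised genes were well counted in all of them. This checks that the rule ran as written. It cannot show how the rule does with real tissue differences or low counts.

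Members were named if they met the symbol rule, except 1 serpin that is not reported here by name and is kept in the counts and totals. Copies of a symbol were told apart by the NR name, or by KEGG where that named none. The members, pathway genes and markers were chosen with earlier results of these data known, and not every marker list was used. Sequences were not analysed here.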

Additional observations from a re-analysis of the deposited data

How the results depend on the processing

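No paired analysis was possible because each tissue has 1 library. The 24 liver calls became 23 with library size, 25 with FPKM ratios, 28 at a fold of 2 and 21 at a fold of 8. The shares of all genes called were then 5.02%, 5.46%, 10.4% and 3.06%. The 8 small intestine calls became 5 by NR name, 12 at a fold of 2 and 7 at a fold of 8. Beside these stood 4.31%, 7.89% and 2.25% of all genes. The 3 salivary gland calls became 5 at a fold of 2 and 1 above an FPKM of 5. Of all genes 5.95% and 1.28% were called so, and the 5 and the 1 of 76 are near those shares. The 37 members detected in the salivary glands became 20 above an FPKM of 5. As a share of FPKM in place of counts, the 58 genes took 0.0677% in the small intestine, 0.137% in the salivary glands and 6.14% in the liver, and fibrinogen 5.64% in the liver. With the other genes among each library's 10 most abundant left out of the total, these were 0.184%, 0.305%, 9.05% and 8.23%. Scalings turned the direction of 19 of 519 alternative values of single-gene ratios, in 14 genes. The 19 include the order of the small intestine and the salivary glands for F2, VWF and THBD by library size alone. Among ratios at or past the fold threshold of the call, in called genes or not, 0 turned. Such large ratios could hardly turn under these scalings, so the 0 is no check of the calls. With 1 animal, the spread between animals is unknown, and counts under 10 set wide intervals.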

Other observations

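Further genes of the same families carried another symbol or none in Swiss-Prot, and were found by their NR names. SERPING1 (gene13686), the inhibitor of complement C1, factor XIIa and kallikrein, had counts of 1093, 554 and 23106 and FPKM of 65.7, 25.8 and 739 (small intestine, salivary glands, liver). AGT (gene23950), angiotensinogen, a serpin that is a hormone precursor, had counts of 25, 277 and 27312 with a liver FPKM of 709. Both liver FPKM were above the 586 of SERPINA1, the highest among the serpins found by symbol. F13B (gene17604), the carrier part of factor XIII, had counts of 0, 0 and 66, and so was found in the liver while the catalytic part F13A1 had 10 counts there.

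The clade A scaffold holds 3 further genes between these members. SERPINA12 (gene94) had counts of 6, 7 and 0, and a gene like the uterine serpins (gene92) had 7, 0 and 27. Between SERPINA1 and SERPINA11, from 174251 to 199023 on the plus strand, lies a gene that the authors joined from reads and that has no annotation (newGene_24). It had counts of 8, 2111 and 37, with FPKM of 1.59, 214 and 0.837. Its highest library is that of its neighbour SERPINA11, which lies on the minus strand and had 660 counts in the salivary glands. The reads were aligned without regard to strand.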
